A study of Mus musculus with 6 samples.

Results

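The comparison of Wt1 knockout with wild-type mouse embryonic stem cells, both treated with retinoic acid, was described across mature microRNAs (miRNAs). A miRNA was taken when it had at least 20 uniquely matched reads in 1 of the 2 libraries after both were scaled to the smaller total. Of 1899 mature entries, 178 met this minimum. The cells, of strain 129/Ola, were kept on gelatin in medium with serum and LIF, the cytokine that holds them undifferentiated. Wt1 is a transcription factor with zinc fingers that kidney and gonad need to form. Its knockout is abbreviated KO here, while WT is the wild type. Retinoic acid (RA), a vitamin A derivative under which stem cells differentiate, was used at a concentration of 1 µM (written µm in the labels and taken as micromolar) for a time that is not given in the sources used here. Untreated WT and untreated Wt1 KO cells are the other groups used. The series also holds Wt1 KO cells induced with dox, which this comparison does not use. Each group is 1 library, and the labels do not say how the knockout was made or from how many clones it came. Wt1 mRNA is not measured in small RNA libraries, so the knockout could not be checked.

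A mature miRNA is a short RNA cut from a hairpin. It guides Argonaute proteins to messenger RNAs that pair with its seed, bases 2 to 8 counted from the 5′ end, and lowers their output. Mouse embryonic stem cells are known for the miR-290 cluster, which promotes their rapid cell cycle and falls as they differentiate. RA is known to switch on HOX genes from their chromosome clusters, in which miR-10 and miR-615 lie.

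The seeds show what the main groups share, so the sequences of the miRNAs with the clearest differences are given first, as in RefSeq, 5′ to 3′, with the seed in capitals. These are the miRNAs of the miR-290 cluster whose shared seeds were far more abundant in Wt1 KO, followed by 3 miRNAs of an X-linked cluster.
miR-291a-3p: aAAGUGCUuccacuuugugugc
miR-294-3p: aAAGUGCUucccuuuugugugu
miR-295-3p: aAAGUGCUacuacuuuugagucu
miR-290a-5p: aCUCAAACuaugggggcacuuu
miR-292a-5p: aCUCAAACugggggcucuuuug
miR-293-5p: aCUCAAACugugugacauuuug
miR-470-5p: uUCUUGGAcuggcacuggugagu
miR-871-3p: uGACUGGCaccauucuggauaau
miR-465c-5p: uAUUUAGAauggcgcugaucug

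The next set has other seeds: those of miR-10, of miR-99 and miR-100, of miR-125 and of miR-200, and that of miR-335-3p. All were called lower in Wt1 KO except miR-99a-5p, which is shown for its seed.
miR-10a-5p: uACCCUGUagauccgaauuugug
miR-10b-5p: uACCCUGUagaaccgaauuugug
miR-99b-5p: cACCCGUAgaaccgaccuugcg
miR-99a-5p: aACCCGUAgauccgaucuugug
miR-100-5p: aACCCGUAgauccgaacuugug
miR-125a-5p: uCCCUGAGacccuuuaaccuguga
miR-125b-5p: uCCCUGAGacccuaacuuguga
miR-351-5p: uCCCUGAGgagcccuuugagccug
miR-200b-3p: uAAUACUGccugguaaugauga
miR-200c-3p: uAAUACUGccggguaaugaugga
miR-429-3p: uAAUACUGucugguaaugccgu
miR-335-3p: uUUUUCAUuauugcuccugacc

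Of the 178 miRNAs, 150 matched a RefSeq mature sequence with a position in build GRCm38.p6, and gene annotation is GENCODE vM21 on the same build. miR-10a-5p and miR-10b-5p differ by 1 base, U12A, and miR-99a-5p and miR-100-5p by U16A, with positions counted from the 5′ end and the first-named miRNA's base first. Such close relatives may exchange reads, depending on how many mismatches were allowed, a setting not given in the sources used here.

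Depth was very unequal. The WT library with RA held 6106104 uniquely matched reads and the Wt1 KO library with RA 83626, a ratio of 73.0, so the minimum of 20 equals 1460 reads in WT. Levels are normalised CPM, counts per 1e6 reads after TMM scaling (trimmed mean of M values). The upper limit behind a count of 0 is 3 counts, which equal 27.8 in Wt1 KO with RA and 0.448 in WT with RA. The miRNAs that passed hold 98.2% of the Wt1 KO reads and 98.7% of the WT reads. There is no replicate, so no p-value is given, and every bracket is a 95% exact binomial (Clopper-Pearson) interval on the log2 ratio of Wt1 KO over WT. It covers counting error only, since 1 library per group gives no spread between libraries. PCR copies without molecular identifiers are not independent molecules, so the interval can be too narrow even for counting error. A miRNA is called higher or lower when the log2 ratio reaches 1 in size and its interval excludes 0.

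In all, 35 of 178 miRNAs were higher in Wt1 KO with RA (19.7%) and 47 were lower (26.4%). The median log2 ratio was -0.07, and single ratios ran from -4.15 to 7.42. The balance depends on scaling. As CPM of the library total, which moves the median by 0.24, 44 were higher (24.7%) and 32 lower (18.0%). By the median of ratios, which moves it by 0.20, the counts were 42 and 36, and with both stem cell clusters (miR-290, miR-302) taken out of the CPM total, which moves it by 0.37, they were 51 and 30. All 35 higher calls were kept under these 3 scalings and under TMM on the 2 RA libraries alone, and 30 of the 47 lower calls were. Each of these scalings moves every log2 ratio upward by a constant. Only lower calls could therefore be lost, and the kept higher calls are no sign of greater stability. The minimum itself selects by level. Through both libraries 124 miRNAs passed, of which 11 were higher and 32 lower. Through Wt1 KO alone 36 passed, of which 24 were higher, and through WT alone 18 passed, of which 15 were lower. The counts over all that passed are therefore a description of this selection.

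**Figure D1:**
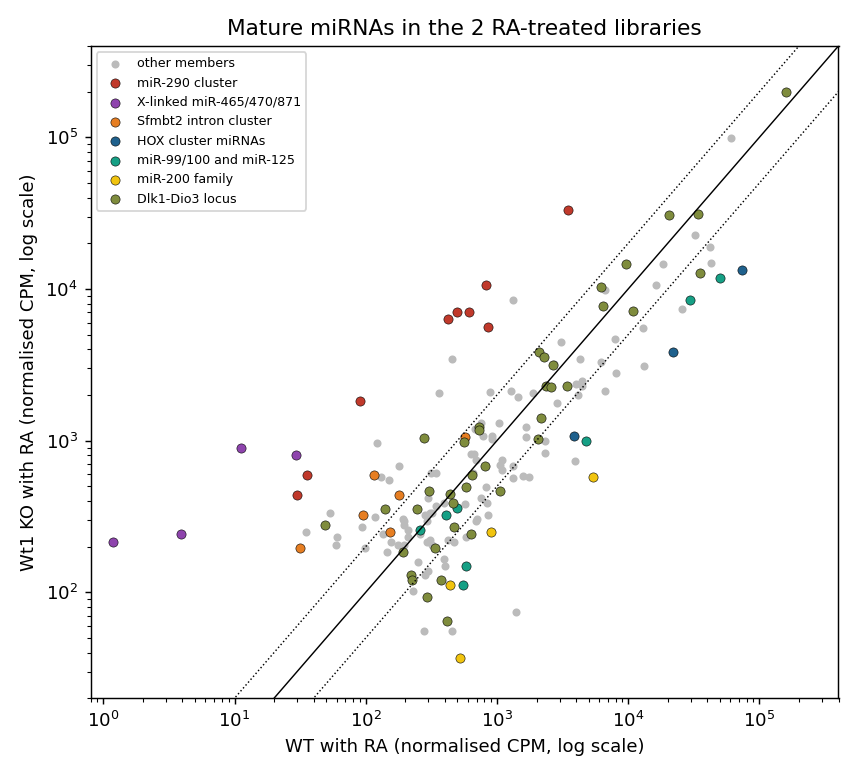
Level of each of the 178 miRNAs in WT with RA (x axis) and Wt1 KO with RA (y axis), both in normalised CPM on log axes; each point is 1 miRNA in 1 library per side, the solid line marks equal levels and the dotted lines a 2-fold difference. The miR-290 cluster and the X-linked cluster lie above the upper dotted line, and the HOX and miR-200 members lie below the lower one.

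The same miRNA led both libraries. miR-127-3p, from the imprinted Dlk1-Dio3 locus, had 1074892 WT reads and 21416 Wt1 KO reads, that is 160563 and 198222 CPM, and a log2 ratio of 0.30 [0.28 to 0.32]. The top 10 miRNAs held 61.6% of the reads in each library, and 6 miRNAs were in both top 10 groups. miR-10a-5p held rank 2 in WT at 73357 CPM and rank 11 in Wt1 KO at 13356. miR-92a-3p, the abundant arm of the miR-17 clusters, which promote proliferation, held rank 3 in WT at 61181 CPM and rank 2 in Wt1 KO at 98398. miR-295-3p held rank 3 in Wt1 KO at 33006 CPM and rank 36 in WT at 3446.

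The 9 miRNAs of the miR-290 cluster that passed were all higher in Wt1 KO, with a median log2 ratio of 3.82 against -0.07 over all 178. Of these, 6 passed through both libraries. miR-290a-5p, miR-291a-3p and miR-293-5p, the remaining 3, passed through Wt1 KO alone, so the selection bears on their direction. The other 9 of the 18 entries did not pass, 4 of them without a read in either library. miR-295-3p had 23070 WT reads and 3566 Wt1 KO reads, a log2 ratio of 3.26 [3.21 to 3.31]. miR-291a-3p, which shares its seed, had 607 and 196 reads, 90.7 and 1814 CPM, and the highest ratio of the cluster, 4.32 [4.08 to 4.56]. miR-294-3p, with the same seed, was at 612 and 7081 CPM. The 3 miRNAs sit far above their WT level but apart from each other, since the intervals of miR-291a-3p and miR-295-3p do not overlap.

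The seed AAGUGCU of these 3 miRNAs, which targets cell cycle inhibitors, held 0.457% of WT reads and 5.42% of Wt1 KO reads. These shares sum all 6 entries with the seed, among them miR-302a-3p, miR-302b-3p and miR-302d-3p, which did not pass. The seed CUCAAAC of miR-290a-5p, miR-292a-5p and miR-293-5p held 0.0979% and 1.51%. miR-292a-5p was the most abundant of these, at 827 CPM in WT and 10635 in Wt1 KO, with a log2 ratio of 3.69 [3.59 to 3.78]. miR-292a-3p, from the other arm of the same hairpin, had the lowest ratio of the cluster, 2.71 [2.59 to 2.83]. The cluster spans chr7:3218639-3220837 on the plus strand of GRCm38.p6 over the 8 located members, with no host gene annotated.

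In untreated cells none of the 9 miRNAs was called, but after TMM scaling all were somewhat higher in Wt1 KO. The median log2 ratio was 0.59, with a range from 0.10 for miR-295-3p to 0.98 for miR-294-3p. Untreated miR-295-3p was at 67688 CPM in WT and 72616 CPM in Wt1 KO. The direction of the smallest differences depends on scaling. As a share of the library total, untreated miR-295-3p held 6.93% (WT) and 5.79% (Wt1 KO), and miR-291a-5p 2.13% and 2.04%. Both were thus lower in Wt1 KO by share, while the other members were higher. With all entries of the cluster summed, the cluster took 16.04% (WT) and 16.8% (Wt1 KO) of untreated reads. With RA these shares were 0.751% and 9.40%. In bulk RNA fewer cells that express a miRNA and less of it per cell cannot be told apart. The miR-302 cluster, known from primed pluripotent cells, had no entry above the minimum. With RA its entries summed to 0.00205% of WT reads and, from 10 reads, 0.0120% of Wt1 KO reads, a log2 ratio of 2.37 [1.21 to 3.24]. Untreated, the order was the opposite, with 0.0810% of WT reads and 0.0128% of Wt1 KO reads, a ratio of -2.30 [-2.52 to -2.09], and the difference between both contrasts was not tested.

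**Figure D2:**
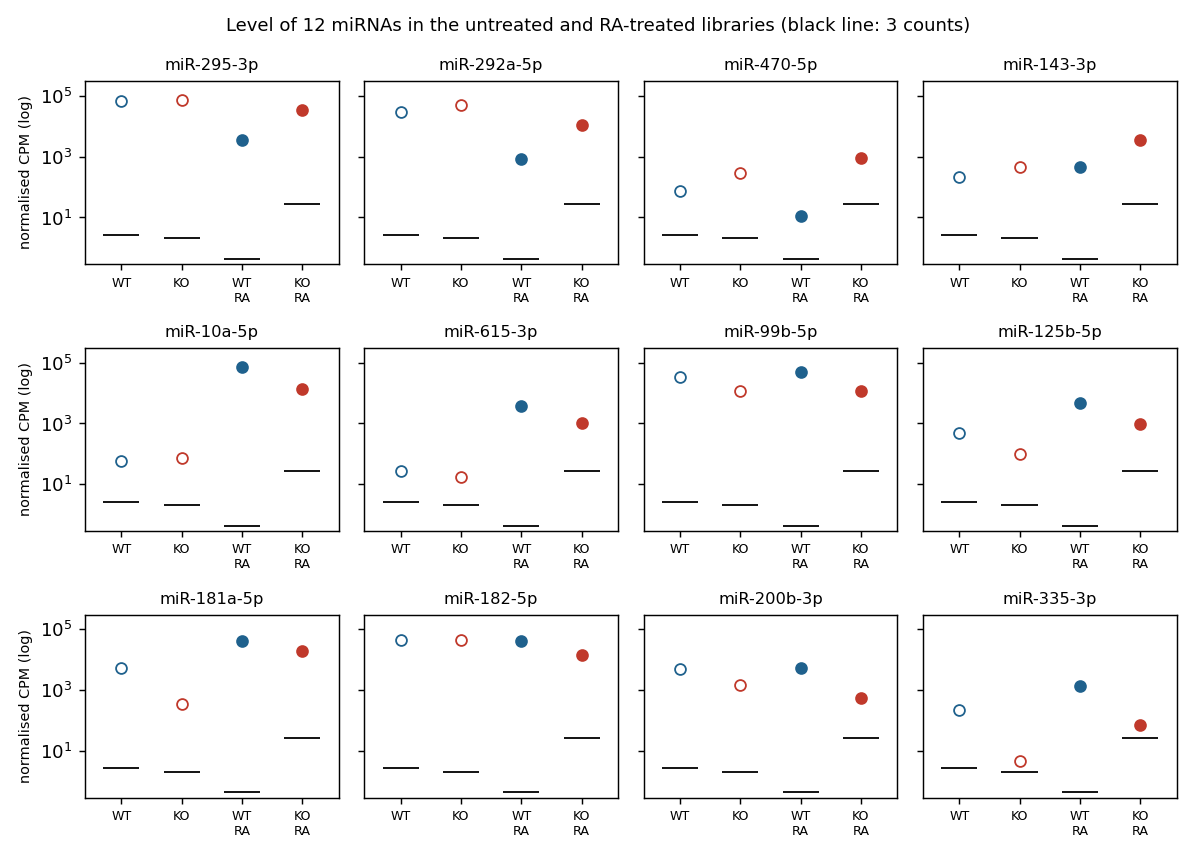
Level of 12 miRNAs (1 panel each) in the libraries of both genotypes, untreated and with RA, in normalised CPM on a log axis; each point is 1 library (blue WT, red Wt1 KO, open untreated, filled with RA) and the black line marks 3 counts in that library. miR-295-3p is at 67688 and 72616 in the untreated libraries and splits to 3446 and 33006 with RA, while miR-335-3p is low in both Wt1 KO libraries.

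The X-linked cluster of miR-465, miR-470 and miR-871, known from the testis, had the highest ratios of all lists. The 4 entries that passed were higher, with a median of 6.13. They passed through Wt1 KO alone, so the selection itself sets this direction. miR-470-5p had 75 WT reads and 96 Wt1 KO reads although the WT library is far deeper, which is 11.2 and 889 CPM and a log2 ratio of 6.31 [5.86 to 6.76]. miR-871-3p was at 29.4 and 805 CPM, a ratio of 4.78 [4.39 to 5.15], and miR-465c-5p rested on 8 and 23 reads, a ratio of 7.42 [6.27 to 8.85]. The joint entry of miR-465a-3p, miR-465b-3p and miR-465c-3p, which the files give as 1 entry, had 26 reads in each library. Over all 36 entries of the list, passed or not, the reads summed to 314 in WT and 245 in Wt1 KO, a ratio of 5.60 [5.35 to 5.84]. In untreated cells the same sum gave 1.46, and miR-470-5p was at 74.4 CPM in WT and 283 in Wt1 KO. miR-871 and miR-470 lie at chrX:66810438-66814017 on the minus strand, with no host gene annotated.

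Of the rodent miRNAs encoded in the Sfmbt2 intron, 6 of 71 entries passed and 4 were higher, with a median of 1.54. Of the 6, 5 passed through Wt1 KO alone, the 4 higher ones among them, so the selection bears on this direction. Over all 71 entries the summed reads gave a log2 ratio of 1.27 [1.12 to 1.40], and -0.10 untreated. miR-467a-5p had 773 and 64 reads, 115 and 592 CPM, and a ratio of 2.37 [1.97 to 2.73]. miR-467d-5p, the most abundant, was at 567 and 1055 CPM, a ratio of 0.90 [0.62 to 1.17], and was not called. Many of these entries are near-identical, and reads that fit several of them are not in these counts.

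The HOX cluster miRNAs went the other way. All 3 that passed were lower in Wt1 KO, with a median of -2.46, while 8 of the 11 entries did not pass. miR-10a-5p had 491094 WT reads and 1443 Wt1 KO reads, 73357 and 13356 CPM, which gives a log2 ratio of -2.46 [-2.53 to -2.38]. Its relative miR-10b-5p, with the same seed, was at 21770 and 3832 CPM, a ratio of -2.50 [-2.65 to -2.37]. miR-615-3p was at 3846 and 1064 CPM, a ratio of -1.85 [-2.13 to -1.59]. The seed ACCCUGU of both miR-10 miRNAs held 10.4% of WT reads and 2.22% of Wt1 KO reads, against 0.0231% and 0.0130% in the untreated libraries. All 3 were thus well above their untreated level in both genotypes, and untreated miR-10a-5p was at 60.6 CPM in WT and 72.3 CPM in Wt1 KO. miR-10a-5p lies at chr11:96317186-96317208 and miR-615-3p at chr15:103014969-103014990, with no host gene annotated. miR-10b-5p lies at chr2:74726074-74726096, in introns of Hoxd3 and Hoxd4. All 3 are on the plus strand.

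Of the HOX entries below the minimum, miR-196a-5p had 530 WT reads and 17 Wt1 KO reads and miR-196b-5p 106 and 6. miR-10a-3p, cut from the opposite side of its hairpin, had 813 and 16 reads. In WT these are 79.2, 15.8 and 121 CPM, and in Wt1 KO 157, 55.5 and 148, so these 3 were not at a lower level in Wt1 KO. Of the others, miR-10b-3p had 128 WT reads and 1 Wt1 KO read and miR-196a-1-3p 34 and 0, both too few in Wt1 KO to compare, and miR-615-5p was at 26.6 and, from 3 reads, 27.8 CPM.

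The miRNAs miR-99, miR-100 and miR-125, which accompany differentiation, had 8 of 11 entries above the minimum, of which 5 were lower and none higher, with a median of -1.87. Of the 5, miR-100-5p and miR-125b-1-3p passed through WT alone. miR-99b-5p had 335971 and 1283 reads, 50186 and 11875 CPM, with a ratio of -2.08 [-2.1595 to -2.0002]. Its neighbour miR-125a-5p, from the same cluster at chr17:17830194-17830840, was at 29716 and 8441 CPM, a ratio of -1.81 [-1.91 to -1.72]. miR-125b-5p was at 4781 and 990 CPM, a ratio of -2.26 [-2.559 to -1.998]. miR-99a-5p stood apart from these with a ratio of -0.44, and miR-125b-2-3p was at 0.03 [-0.59 to 0.54], from 1734 and 28 reads. In untreated cells 6 of the 8 were already lower in Wt1 KO, among them miR-99b-5p at 32644 CPM in WT and 11429 in Wt1 KO. Untreated miR-99a-5p had 4 reads in WT and 0 reads in Wt1 KO.

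The miR-125 seed CCCUGAG also belongs to miR-351-5p, which comes from another cluster on chromosome X. miR-351-5p was lower too, at 6658 and 2120 CPM, a ratio of -1.65 [-1.84 to -1.46]. Its cluster neighbours miR-322-5p and miR-322-3p were at 0.03 and 0.08, with intervals that include 0.

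The miR-200 family, a guard of epithelial identity, had 4 of 10 entries above the minimum and all 4 were lower, with a median of -2.57. Of the 4, miR-200a-3p and miR-200c-3p passed through WT alone, so the selection bears on their direction. Over all 10 entries the summed reads gave a log2 ratio of -2.80 [-3.08 to -2.54]. miR-200b-3p had 36291 WT reads and 62 Wt1 KO reads, 5421 and 574 CPM, and a log2 ratio of -3.23 [-3.62 to -2.88]. miR-200c-3p, from another locus, had 3479 and 4 reads, a ratio of -3.64 [-5.69 to -2.45]. miR-429-3p was at 908 and 250 CPM and miR-200a-3p at 437 and 111, with ratios of -1.83 and -1.92. miR-200b, miR-200a and miR-429 lie together at chr4:156053916-156055706 on the minus strand, inside introns of Ttll10. In untreated cells 3 of the 4 were lower in Wt1 KO, and miR-200c-3p, at 434 and 256 CPM, was not called. miR-205-5p, another epithelial miRNA, was at 3923 and 731 CPM with RA, a ratio of -2.41 [-2.76 to -2.11].

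The miR-183 cluster is best known in sensory organs. All 3 entries that passed, miR-183-3p through WT alone, were lower with RA and none was called in untreated cells. The difference between both contrasts was not tested. miR-182-5p had 287323 and 1601 reads, 42919 and 14819 CPM, and a ratio of -1.53 [-1.61 to -1.46]. Untreated, it was at 43408 CPM in WT and 45155 in Wt1 KO, so the Wt1 KO library with RA is the one that stands low. miR-183-5p was at 11509 CPM in WT and 10880 CPM in Wt1 KO untreated, and at 8047 and 2805 CPM with RA, so it too was lowest in Wt1 KO with RA.

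miR-335-3p, encoded in an intron of the imprinted gene Mest at chr6:30741354-30741375, had the lowest ratio of all 178. It had 9325 WT reads and 8 Wt1 KO reads, 1393 and 74.0 CPM, and a log2 ratio of -4.15 [-5.45 to -3.25]. It passed through WT alone. In untreated cells it had 243 WT reads and 7 Wt1 KO reads. Its other arm, miR-335-5p, had 278 WT reads and 0 Wt1 KO reads with RA.

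The miR-181 family, which is known from differentiating cells, had 5 of 10 entries above the minimum, of which 4 were lower. Of the 4, miR-181c-3p passed through WT alone. miR-181a-5p was at 42196 CPM in WT and 18956 in Wt1 KO, a ratio of -1.15 [-1.22 to -1.09], and miR-181b-5p at 4476 and 2453 CPM, a ratio of -0.87. As CPM of the library total 1 of the 4 calls is left, that of miR-181d-5p. The untreated gap was wider for the a and b members, since untreated miR-181a-5p was at 5558 and 364 CPM. miR-27b-3p and miR-298-5p, which belong to none of these families, were lower with ratios of -2.09 [-2.25 to -1.93] and -1.80 [-1.90 to -1.70], and miR-501-3p, from 3027 and 6 reads, with -2.91 [-4.47 to -1.90]. miR-501-3p passed through WT alone, so the selection bears on its direction.

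**Figure D3:**
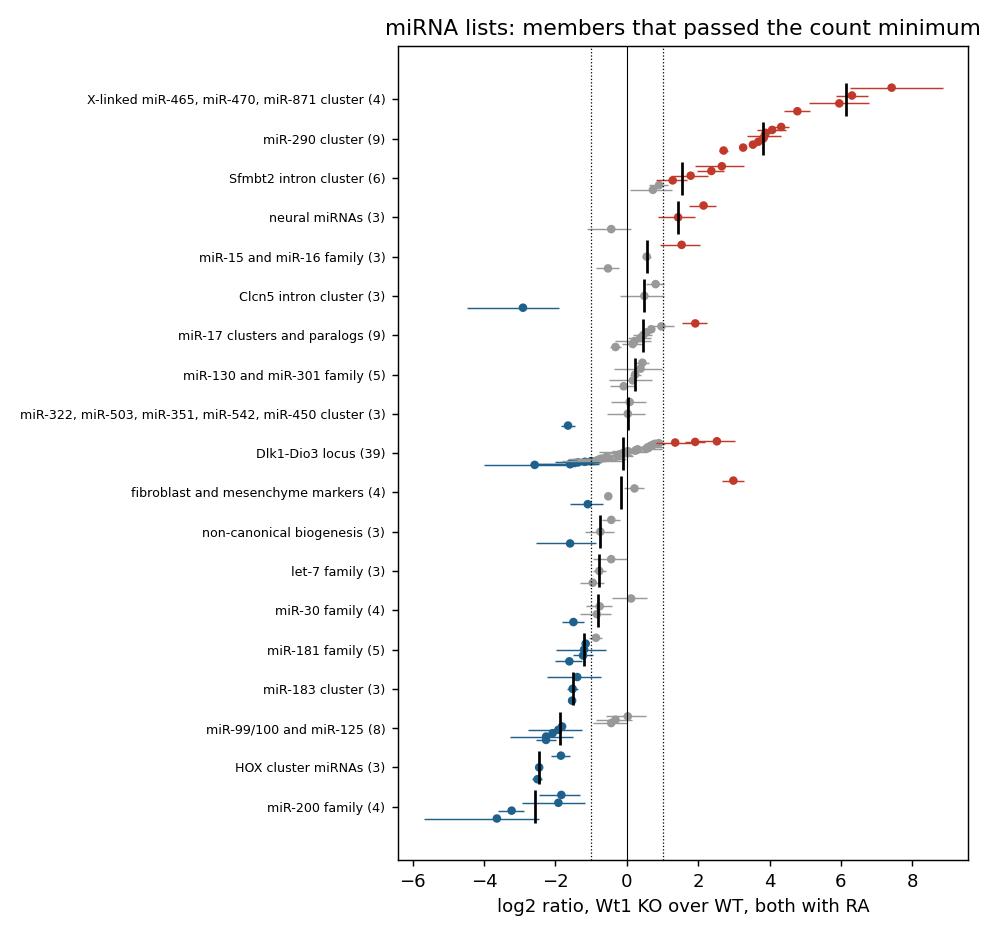
Log2 ratio of Wt1 KO over WT with RA (x axis) for the miRNAs of each list with 3 or more members above the minimum (number in brackets); points are miRNAs (red higher, blue lower, grey neither), thin lines are 95% counting intervals, black bars list medians, and dotted lines mark -1 and 1. Medians run from 6.13 for the X-linked cluster to -2.57 for the miR-200 family.

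The let-7 family, whose mature forms build up during differentiation, had no call. Its 3 of 21 entries above the minimum were let-7c-5p, let-7e-5p and let-7a-5p, at ratios of -0.77, -0.95 and -0.44. For the miR-17 clusters with their paralogs, 9 of 28 entries passed and 1 was higher, miR-363-3p, which passed through Wt1 KO alone, at 180 and 676 CPM, a ratio of 1.92 [1.55 to 2.25]. miR-92a-3p was at 0.69 [0.66 to 0.71], miR-25-3p at 0.55 and miR-93-5p at -0.32. Together the seed AUUGCAC of miR-92a-3p, miR-25-3p, miR-363-3p and miR-92b-3p held 8.13% of WT reads and 14.5% of Wt1 KO reads. In untreated cells this seed already held a larger share in Wt1 KO, 37.4% against 22.6% in WT. The 5 of 9 entries of the miR-130 and miR-301 family that passed lay between -0.09 and 0.44 with no call. The miR-15 and miR-16 family had 3 of 13 entries, of which miR-15a-5p, through Wt1 KO alone, was higher at 1.54 [0.92 to 2.05] and miR-16-5p, the most abundant, was at 0.56. Of the miR-30 family 4 of 12 passed and miR-30d-5p was lower, at 2337 and 824 CPM. Further lists gave few calls: 2 of 5 miR-26 entries passed with none called, 2 of 11 entries of the miR-34 and miR-449 list with miR-34a-5p lower (not as CPM of the library total), and 2 of 11 entries of the miR-23, miR-27 and miR-24 clusters, both lower. Of 10 entries of the Clcn5 intron 3 passed and miR-501-3p was lower, and of 21 entries made by non-canonical routes 3 passed and 1 was lower. The lower entries of these lists passed through WT alone, so the selection bears on their direction.

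The imprinted Dlk1-Dio3 locus took 34.6% of WT reads and 44.6% of Wt1 KO reads with RA, but its miRNAs had calls in both directions. Of 115 entries 39 passed, of which 3 were higher, 7 lower and 29 neither. By library, 3 passed through Wt1 KO alone and 5 through WT alone. The balance turns with scaling. As CPM of the library total 6 were higher and 5 lower, and without the stem cell clusters 9 were higher and 4 lower, while the list median of -0.10 becomes 0.14 and 0.27. Along the locus on chromosome 12, the segment from miR-337 to miR-136 at chr12:109585818-109595387 held 8 members with 1 call, miR-136-3p, at 276 and 1037 CPM and a ratio of 1.91 [1.62 to 2.18]. The segment from miR-379 to miR-410 at chr12:109709065-109743784 held 25 members, 2 of them higher and 7 lower. It was the only 1 of 15 genomic clusters, made of members within 10000 bases on the same strand, that held both kinds of call. Its higher members, miR-379-3p and miR-376b-3p, passed through Wt1 KO alone. Among its lower members, miR-299a-5p, miR-409-5p and miR-668-3p passed through WT alone, so the selection bears on these directions.

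In that segment miR-376b-3p was higher at 2.52 [1.91 to 3.04], from 328 WT reads and 30 Wt1 KO reads. miR-411-5p, the most abundant there in Wt1 KO, was at 20328 and 30757 CPM, a ratio of 0.60 [0.55 to 0.65]. miR-541-5p was at 35477 and 12828 CPM, a ratio of -1.47 [-1.54 to -1.39], although its neighbour miR-410-3p was at 0.61 [0.54 to 0.68]. miR-409-5p had 2782 and 7 reads and the lowest ratio of the locus, -2.58 [-4.00 to -1.64], while miR-409-3p, from the same hairpin, was at -0.59. Neighbours transcribed from one strand thus differed by more than their counting intervals.

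**Figure D4:**
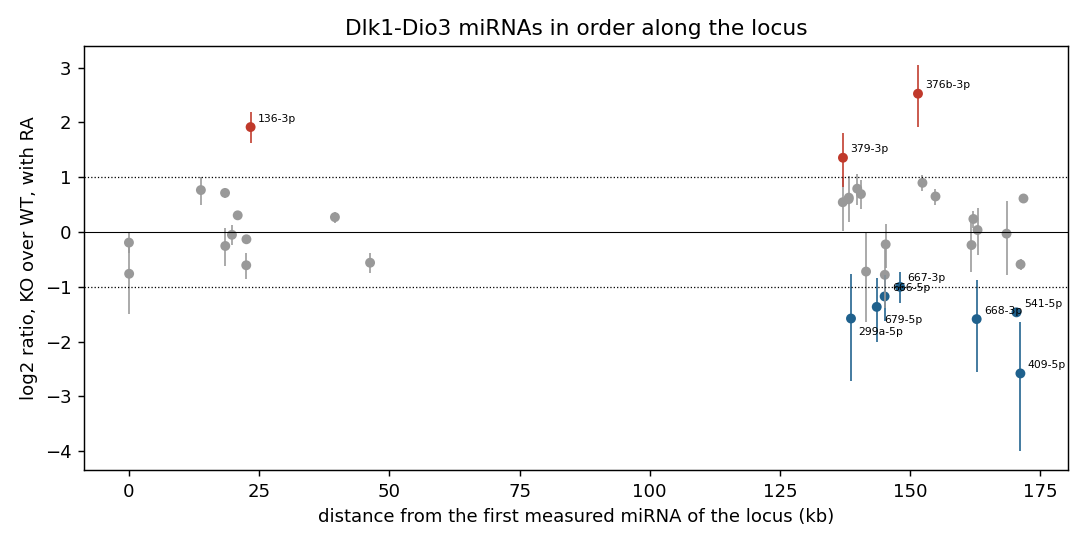
Log2 ratio of Wt1 KO over WT with RA (y axis) of the Dlk1-Dio3 miRNAs with 1 located hairpin, by distance in kb from the first measured miRNA (x axis); points are miRNAs (red higher, blue lower, grey neither), bars are 95% counting intervals and dotted lines mark -1 and 1. Called members of both directions lie in the distal segment, with miR-376b-3p (passed through Wt1 KO alone) at 2.52 and miR-409-5p (passed through WT alone) at -2.58.

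The 178 miRNAs fall into 137 seed families, of which 26 (19.0%) were higher and 34 (24.8%) lower when all entries with the seed were summed. Of these, 23 families had 2 or more members, 64 members in all. In 7 of the 23 all members had the same call, and no family held both a higher and a lower member. The median GC content was 45.5% for the higher miRNAs and 50% for the lower and for the uncalled ones, and the median length was 22 bases in each group. The first base was U in 15 of 35 higher (42.9%), 26 of 47 lower (55.3%) and 40 of 96 uncalled miRNAs (41.7%).

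The ratio of the 2 arms of a hairpin does not depend on scaling between libraries. Over 122 hairpins with at least 20 reads in each library, the 5p share was called higher in Wt1 KO for 4 (3.28%) and lower for 11 (9.02%), by a log2 odds ratio of at least 1 with an exact interval that excludes 0. The arm with more reads differed between the libraries in 6 of the 122, but in each of the 6 the interval of the 5p share included 50% in at least 1 library. For miR-10a the 5p arm held 99.8% of the hairpin's reads in WT and 98.9% in Wt1 KO, a log2 odds ratio of -2.79 [-3.46 to -1.93]. For miR-99b the shares were 99.2% and 97.3%, a log2 odds ratio of -1.76 [-2.23 to -1.21]. In both hairpins the abundant 5p arm was lower in Wt1 KO, while the minor 3p arms were at 121 and 148 CPM for miR-10a-3p and at a log2 ratio of -0.32 [-0.86 to 0.14] for miR-99b-3p.

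miR-25 and miR-409 had their minor 5p arm lower in Wt1 KO, with 5p shares of 2.46% and 0.377% for miR-25 and 3.69% and 0.892% for miR-409. For miR-340 the 3p arm had 200 of 1208 reads in WT and 0 of 59 in Wt1 KO, which allows a 3p share of up to 5.08%. The 5p share of miR-292a was 49.2% in WT and 65.6% in Wt1 KO with RA, against 62.3% and 63.1% untreated, so the WT library with RA stands apart there. Its log2 odds ratio of 0.97 [0.82 to 1.13] was just under the size rule. Among the 23 hairpins with both arms above the minimum, 16 had both arms higher, both lower or both uncalled, and none had opposite calls. Both arms were higher for miR-291a, miR-292a and miR-293 and lower for miR-181c and miR-183. In the rest of the 16 neither arm was called.

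The genotype difference was then set beside that of untreated cells, a contrast that shares no library with it. Over the same 178 miRNAs 15 were higher (8.43%) and 29 lower (16.3%) in untreated Wt1 KO. Of the 47 miRNAs that were lower with RA 16 were also lower untreated, 34.0% of the 47 and 55.2% of the 29. Of the 35 that were higher with RA 8 were also higher untreated, 22.9% of the 35 and 53.3% of the 15. Those lower in both included the miR-99b and miR-125a pair, 3 miR-200 members, miR-205-5p, miR-27b-3p and miR-335-3p. The 27 that were higher with RA alone included all 9 miR-290 miRNAs, and the 30 that were lower with RA alone included the 3 HOX and the 3 miR-183 members. Of the 29 that were lower untreated 13 had no call with RA, such as miR-21a-5p, which was at 2406 and 305 CPM untreated and at 921 and 1064 CPM with RA. miR-22-3p, another of these, was at 57033 and 15083 CPM untreated and at 32464 and 22640 CPM with RA. No test of the difference between the 2 contrasts was possible with 1 library per group.

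**Figure D5:**
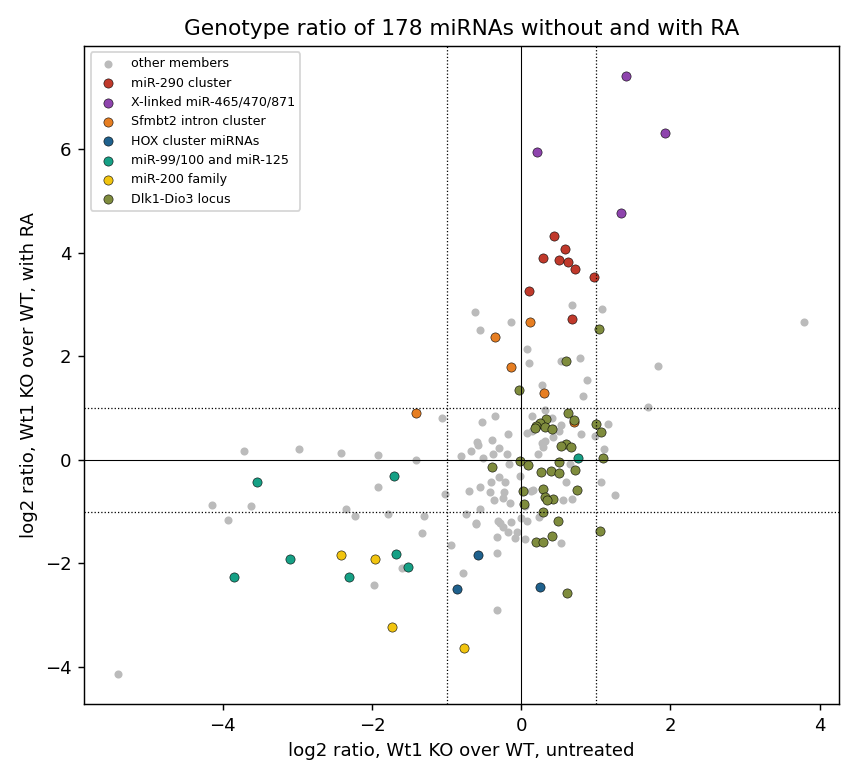
Log2 ratio of Wt1 KO over WT in untreated cells (x axis) and with RA (y axis) for the 178 miRNAs; each point is 1 miRNA, each contrast has 1 library per side, and dotted lines mark -1 and 1. The miR-290 cluster lies between 0.10 and 0.98 on the x axis and between 2.71 and 4.32 on the y axis, and miR-335-3p is lowest on both.

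Some markers of other cell types and of RNA quality also differed. Of the muscle and mesoderm list 2 of 23 entries passed. miR-143-3p was higher, at 456 CPM in WT and 3443 in Wt1 KO, a ratio of 2.92 [2.76 to 3.07], and miR-133a-3p was at -0.90. The list's summed share was 0.0976% in WT and 0.475% in Wt1 KO with RA, and 0.0342% and 0.0374% untreated, while its defining markers miR-1a-3p and miR-206-3p had 0 reads in all of these libraries. Of the fibroblast and mesenchyme list 4 of 17 passed, 1 higher and 1 lower. The joint entry of miR-199a-3p and miR-199b-3p was higher, at 122 and 963 CPM, a ratio of 2.99 [2.67 to 3.28], and passed through Wt1 KO alone. Below the minimum, miR-199a-5p was at 10.6 and 120 CPM and miR-214-3p at 12.7 and 120 CPM, each from 13 Wt1 KO reads. miR-31-5p was lower at -1.10, a call that CPM of the library total does not give. The list's summed share was 3.80% in WT and 3.31% in Wt1 KO, against 6.35% and 1.28% untreated, and most of these reads with RA were miR-22-3p.

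Of the neural list 3 of 23 passed. miR-138-5p and miR-128-3p, higher at 2.15 and 1.44, passed through Wt1 KO alone, so the selection bears on their direction, and miR-9-5p, which passed through both, was at -0.44. Its summed share was 0.0728% in WT and 0.159% in Wt1 KO, and the neuronal marker miR-124-3p had 60 and 3 reads. Of the blood and endothelium list 2 of 22 passed, with miR-150-5p, through Wt1 KO alone, higher at 1.81 [1.09 to 2.39], and miR-223-3p and miR-451a had 0 reads in both libraries. The list's summed share was 0.133% and 0.153%. The endoderm list, which also holds miR-192, miR-194 and miR-215, had 1 of 11 entries, miR-375-3p at -0.62, with shares of 0.0396% and 0.0466%. The list named for kidney, made of miR-193, miR-204, miR-211, miR-216 and miR-217 entries, had 1 of 14. This was miR-193b-3p at -1.06, through WT alone, a call that CPM of the library total does not give. That list's shares were 0.0367% and 0.0299%, and it is not a measure of kidney cells. Of 7 entries that are thought to hold ribosomal or transfer RNA fragments 1 passed. This entry, miR-6240, was higher at 363 and 2055 CPM, a ratio of 2.50 [2.30 to 2.70]. The 7 entries, with most reads from miR-6240, summed to 0.0426% in WT and 0.285% in Wt1 KO with RA. Untreated they summed to 0.0516% and 0.0301%. Below the minimum, miR-690 was at 18.8 and 111 CPM and miR-6236, from 4 Wt1 KO reads, at 4.18 and 37.0. miR-2137 and miR-3968 had 0 reads in Wt1 KO with RA. The part of these cell types and of RNA quality in the other differences was not tested. The library depth moves with the genotype in this pair and cannot be told apart from it.

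The minimum had close neighbours on both sides. Just inside it were miR-377-5p and miR-301b-3p with 20 reads in Wt1 KO and miR-329-3p with 20.3 scaled reads in WT. Just outside were miR-378d and miR-23b-3p with 19.8 and 19.7 scaled reads in WT and miR-127-5p with 19 reads in Wt1 KO.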

How the data were processed

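There are 6 small RNA libraries, 1 per group. Both RNA ends received adapters, and gel bands of miRNAs and of somewhat longer small RNAs were pooled, per the labels' protocols. Per the file headers, the deposited values are counts of reads per mature miRNA entry that matched 1 entry or several entries. Of aligner, mismatches, miRBase version, genome build and read filters nothing is given in the sources used here. Counts of reads matching 1 entry were used as deposited.

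TMM factors came from edgeR 4.0.16 (R 4.3.3) on 351 entries, those whose count averaged 50 or more. They were 1.10 for WT and 1.29 for Wt1 KO with RA. Log2 ratios had 0.5 added to each count. Exact intervals were computed with scipy 1.17.1 and checked on simulated data. The simulated reads were independent, as the intervals assume, so the check does not cover PCR copies, scaling or differences between libraries. With 1 library per group no test between groups was possible.

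Named miRNAs are the 12 higher and 12 lower with the interval bound farthest from 0, the 10 most abundant per RA library, up to 4 per list, the 6 hairpins with the farthest arm-ratio bound, opposite calls and the neighbours of the minimum. Others were chosen after their values were seen, and the members and lists were chosen with earlier results of these data known. Alternatives were other scalings, including size factors from DESeq2 1.42.0, other minimums, added multi-matches, a prior count of 2 and a stricter size rule.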

Additional observations from a re-analysis of the deposited data

Results flagged for a closer look

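miR-679-5p, from the Dlk1-Dio3 locus, was flagged because its genotype difference had opposite calls without and with RA. It was higher in untreated Wt1 KO, at 322 CPM in WT and 668 in Wt1 KO, a log2 ratio of 1.05. With RA it was lower in Wt1 KO, at 633 and 241 CPM, a ratio of -1.37 [-2.01 to -0.84]. The difference between the 2 contrasts was not tested, and the untreated call is lost as CPM of the library total.

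A further 7 entries had few uniquely matched reads in Wt1 KO with RA but more multi-matched reads, relative to depth, than WT with RA. Multi-matches are reads that fit several entries and that the comparisons do not use. miR-466a-3p with miR-466e-3p, and miR-466b-3p with miR-466c-3p and miR-466p-3p, had 43 multi-matches each in Wt1 KO and 831 and 783 in WT. miR-3473b and miR-3473e had 24 each in Wt1 KO and 90 and 89 in WT. miR-291b-5p had 12 and 25, miR-27a-3p 11 and 212, and miR-467b-5p 10 and 102. Paired entries with near-equal numbers share the same reads in part. Multi-matches made up 0.404% of all matches in Wt1 KO with RA and 0.135% in WT with RA.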

How the results depend on the processing

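No paired analysis was possible because each group is 1 library and the labels give no replicate numbers. Leaving out a library leaves no comparison. Among the list medians and named ratios that were recomputed, those of at least 1 in size kept their sign. The other scalings add the same value to every ratio with RA, at most 0.37. They could not have changed these signs with RA. The number of miRNAs higher in Wt1 KO with RA went from 35 to 20 at a minimum of 50 and to 106 with none. The number lower went from 47 to 30 with both stem cell clusters taken out of the CPM total and to 28 with intervals wholly beyond the size rule. It rose to 54 at a minimum of 10 and to 68 with none. Higher in both states were 5 as CPM of the total and without the stem cell clusters, 13 at a minimum of 10, 3 at 50, 4 for a mean of both libraries of at least 20, 23 with no minimum and 4 under the stricter rule, against 8. Higher with RA and lower untreated were 2 by library-total CPM, DESeq2 size factors and CPM without the stem cell clusters, and 6 with no minimum, against 0. Lower with RA and higher untreated were 0 under the same 3 scalings and the stricter rule, against 1. For the miR-290 cluster the median log2 ratio, 3.82, became 4.05 by library-total CPM, 4.01 by DESeq2 size factors, 3.99 by TMM on the 2 RA libraries and 4.19 without the stem cell clusters. Without the stem cell clusters the median was 0.82 for the miR-17 clusters and 0.27 for the Dlk1-Dio3 locus. Among the list counts, the higher calls of the Dlk1-Dio3 locus went from 3 to between 4 and 9 and its lower calls from 7 to between 4 and 6 under the 4 other scalings. Those of the miR-17 clusters went from 1 to 2 or 3 higher, and those of the miR-181 family from 4 to between 1 and 3 lower. Single calls also came or went in the fibroblast, kidney, miR-34, miR-26, miR-23 and Clcn5 lists. Hairpins with a shifted arm ratio were 7 at 100 reads and 5 under the stricter rule, against 15. The cause of these shifts was not tested. Depth limits the Wt1 KO library with RA, where the median half-width of the intervals over all 178 miRNAs was 0.37.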

Other observations

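Of the 178 miRNAs 44 belonged to no list, of which 7 were higher and 12 lower in Wt1 KO with RA. miR-5099 was the most abundant of the higher ones, at 1335 CPM in WT and 8441 in Wt1 KO, a log2 ratio of 2.66 [2.56 to 2.76], against 6448 and 5842 CPM in the untreated libraries. miR-5126 had the widest untreated difference upward of all 178, at 37.6 and 527 CPM, and was at 53.5 and 333 CPM with RA. miR-340-5p, miR-101a-3p, miR-148a-3p and miR-1198-5p were higher at 1.87, 1.98, 1.24 and 1.02, and miR-6539 at 2.86. Of the 44, 12 passed through Wt1 KO alone and 3 through WT alone. The 12 include miR-5126, miR-340-5p, miR-101a-3p and miR-1198-5p, so the selection bears on their direction. Among the lower ones were miR-191-5p at -1.23 and miR-744-5p at -1.04, both widely expressed miRNAs, and both calls are lost as CPM of the library total. These miRNAs were singled out after their values were seen.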
